A study of Mus musculus with 8 samples.

Results

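The tetraspanin genes were examined in soleus muscle of Megf10 KO and WT mice. Members were taken by gene symbol alone: Tspan followed by digits, or the family symbols Cd9, Cd37, Cd53, Cd63, Cd81, Cd82, Cd151, Upk1a, Upk1b, Rom1 and Prph2. This gave 28 of the 16382 named genes in the tables, 19 with a Tspan symbol and 9 with another symbol. Tspan10, Upk1b and Prph2 were not analysed here. The family was chosen by the KO minus WT difference of Tspan9, already known to be higher in KO in these same libraries, so the values of Tspan9 are given as a description with no test. The other 27 genes entered through their symbols and were tested.

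The KO mice were homozygous for Megf10tm1b(KOMP)Jr, an allele without the fourth exon of Megf10 in every tissue, and the comparison was with WT mice. All were females 7 months old, and polyA RNA was sequenced from the whole soleus, a slow postural leg muscle, with 1 library per mouse and 4 mice per genotype. P-values therefore set the difference between genotypes against the spread between mice, which the fit moderates with the other genes. The study kept its KO mice at more than one site, and the site of these animals was not given in the sources used here.

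Tetraspanins are small proteins that cross the membrane several times and gather integrins, immunoglobulin proteins, proteases and receptors into patches at the cell surface. Some reach the surface only with a partner, and others guide the partner's traffic or its cutting of substrates. In skeletal muscle they are best known from cell fusion, where Cd9 and Cd81 restrain the joining of myoblasts in mice, and from the contact of integrins with the laminin around each fibre.

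Values are the authors' gene counts normalized by DESeq2, a count scaled for library size and transcript length, so 1 gene can be compared between libraries but levels of different genes are not compared here. Differences are KO minus WT on log2(normalized count + 1) with the standard error (SE), and adjusted p-values are from limma with Benjamini-Hochberg adjustment over all 16382 genes, called under 0.05. Sequencing depth was estimated from the spacing of low values. It was 26.0 to 37.8 M reads (M, mega) in KO libraries and 36.8 to 41.6 M reads in WT libraries. The estimate is rough, since only 17.6 to 36.5% of low values came out as whole reads under it. KO replicates 2, 3 and 4 were the shallowest, and KO replicates 2 and 3 also held high levels of Myh4, the myosin of fast type IIb fibres, at 18638 and 43384. Megf10 itself was 1.55, 7.76, 1.12 and 11.1 in KO libraries, against 63.0, 57.1, 69.7 and 70.0 in WT libraries, low in every library labelled KO.

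Tspan9 was the family member with the largest difference. It encodes a tetraspanin known from megakaryocytes and platelets, where it sits with the collagen receptor glycoprotein VI. Its normalized count was 3904, 3393, 4377 and 3345 in KO libraries, against 641, 956, 843 and 953 in WT libraries. Every KO library stood above every WT library by a wide margin, and the KO libraries with high Myh4 were not apart from the other KO libraries. Tspan9 averaged 3755 ± 486 in KO and 848 ± 148 in WT (SD, n = 4 each), a 4.43-fold ratio. On the log2 scale the difference was 2.15, the 92nd highest of all 16382 genes, and it stayed between 2.03 and 2.22 when any 1 library was left out. The next member in order, Tspan11, was 1.06 lower on that scale. In whole muscle, more cells of a type and more RNA per cell cannot be told apart.

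RefSeq lists several start sites for Tspan9 on the reverse strand of chromosome 6, and the counts per gene do not separate them. The 250 bases before 2 of these starts are shown because both hold an E-box, the letters CANNTG (N is any base), which is the kind of site that myogenic bHLH factors such as MyoD bind. They are printed 5′ to 3′ from RefSeq on build GRCm38.p6, not the build of the count tables, with the E-box in capitals. The marked sites are CACATG and CACTTG, and binding of any factor to them was not tested.
Tspan9 outermost start, chr6:128143579-128143828, reverse strand: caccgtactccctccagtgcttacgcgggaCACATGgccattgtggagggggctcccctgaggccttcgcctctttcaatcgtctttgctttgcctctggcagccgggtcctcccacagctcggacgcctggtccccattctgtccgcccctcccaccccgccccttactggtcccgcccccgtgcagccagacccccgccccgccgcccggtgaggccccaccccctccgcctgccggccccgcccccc
Tspan9 inner start, chr6:128095470-128095719, reverse strand: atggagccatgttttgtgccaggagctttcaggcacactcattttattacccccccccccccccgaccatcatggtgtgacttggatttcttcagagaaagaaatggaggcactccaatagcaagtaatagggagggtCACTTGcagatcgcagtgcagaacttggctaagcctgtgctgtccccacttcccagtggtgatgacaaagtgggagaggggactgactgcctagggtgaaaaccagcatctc

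CANNTG reads the same on both strands. It was in 2 of the 4 Tspan9 windows and in 22 of the 37 windows of the 27 members with an entry, against 66.2% of all 32851 windows of the same length. The narrower form CAGCTG, one of the CANNTG sequences, was in 5 member windows, those of Cd81, Cd9, Tspan32, Tspan33 and Tspan7, and in 13.0% of all windows. For the 4 members other than Tspan9 called below, both windows of Cd151 hold a CANNTG, the window of Cd81 holds CAGCTG, and those of Tspan17 and Tspan13 hold no CANNTG. All windows of these 4 members are printed here. For Tspan9 only the 2 of 4 windows with an E-box are printed, so the sets are not alike.
Cd151 outer start, chr7:141467112-141467361, forward strand: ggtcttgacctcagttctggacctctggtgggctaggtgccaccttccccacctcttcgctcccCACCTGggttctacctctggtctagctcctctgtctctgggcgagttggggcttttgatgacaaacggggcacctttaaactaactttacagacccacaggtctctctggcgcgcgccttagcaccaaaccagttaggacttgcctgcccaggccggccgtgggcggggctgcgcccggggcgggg
Cd151 inner start, chr7:141468539-141468788, forward strand: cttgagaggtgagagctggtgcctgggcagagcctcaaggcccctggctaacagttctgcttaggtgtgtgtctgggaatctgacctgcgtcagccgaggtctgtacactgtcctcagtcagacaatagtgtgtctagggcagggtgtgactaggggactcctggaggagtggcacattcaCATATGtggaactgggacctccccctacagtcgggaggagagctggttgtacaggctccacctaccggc
Cd81, chr7:143052500-143052749, forward strand: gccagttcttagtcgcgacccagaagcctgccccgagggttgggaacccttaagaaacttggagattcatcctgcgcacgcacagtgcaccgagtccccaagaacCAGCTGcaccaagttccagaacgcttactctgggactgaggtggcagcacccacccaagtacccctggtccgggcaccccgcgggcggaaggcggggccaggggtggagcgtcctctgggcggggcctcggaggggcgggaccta
Tspan17, chr13:54789155-54789404, forward strand: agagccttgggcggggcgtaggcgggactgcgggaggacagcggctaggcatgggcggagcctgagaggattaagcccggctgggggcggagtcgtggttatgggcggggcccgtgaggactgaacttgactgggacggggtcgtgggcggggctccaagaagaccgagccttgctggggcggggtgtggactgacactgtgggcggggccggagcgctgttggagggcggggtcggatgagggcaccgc
Tspan13, chr12:36042479-36042728, reverse strand: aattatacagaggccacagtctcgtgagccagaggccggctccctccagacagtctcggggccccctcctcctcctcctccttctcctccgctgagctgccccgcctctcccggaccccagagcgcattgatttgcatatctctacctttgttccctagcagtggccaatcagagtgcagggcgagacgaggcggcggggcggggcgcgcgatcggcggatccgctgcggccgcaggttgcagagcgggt

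Of the 27 members other than Tspan9, Cd151, Cd81 and Tspan17 rose in KO, Tspan13 fell, and 23 did not pass. The 4 called are 14.8% of the 27, where 8.95% of all genes were called (5.16% higher and 3.79% lower in KO). At an unadjusted p under 0.05 there were 11 of the 27 (40.7%), beside 25.5% of all genes. By sign alone 19 members were above 0 and 8 below, with a median of 0.17 against -0.0072 over all genes, though Cd63 and Tspan31 moved from below to above 0 when library totals were used as the scaling. The call count was 2, Cd151 and Tspan17, without KO replicate 2, without KO replicate 3 or without WT replicate 3, in fits with fewer samples where Cd81 was 0.22 to 0.24 and Tspan13 -0.48 to -0.43. It was 0 with both KO replicates 2 and 3 left out, where Cd151 was 0.43 and Tspan17 0.54, and the calls over all genes were then 164. In that fit 6 members (22.2%) and 17.8% of all genes had an unadjusted p under 0.05. It was also 0 with depth as a covariate, where Tspan13 was -0.27, 5 members (18.5%) and 13.0% of all genes had an unadjusted p under 0.05, and the calls over all genes were 58.

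**Figure D1:**
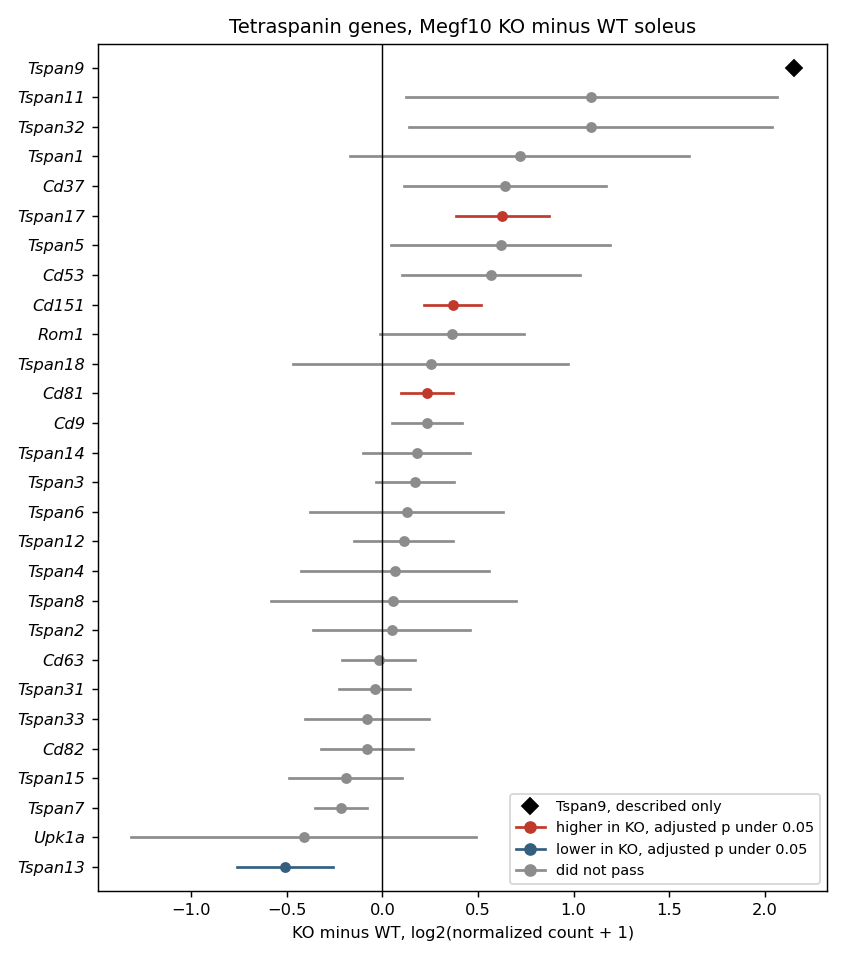
Each of the 28 tetraspanin genes by its KO minus WT difference in log2(normalized count + 1), with 95% intervals from limma (4 KO and 4 WT libraries). Tspan9 is drawn as a diamond with no interval because it was not tested. Tspan9 lies at 2.15, well to the right of the others, and the called genes Tspan17, Cd151, Cd81 and Tspan13 have narrower intervals than Tspan11 and Tspan32, which lie further out at 1.09.

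Cd151 and Cd82 are among the members linked to integrins: Cd151 binds the laminin-binding integrins directly, and Cd82 slows cell migration and marks human muscle stem cells. The normalized count of Cd151 was 5032, 4451, 4738 and 4915 in KO libraries, against 3502, 4053, 3749 and 3533 in WT libraries. All KO libraries were above all WT libraries, with WT replicate 2 the nearest. Cd151 rose 29.0% (log2 difference 0.37, SE 0.0674, limma adjusted p = 0.00914), and its call held with any 1 library left out. Cd82 was 405, 366, 324 and 328 in KO libraries, against 376, 411, 354 and 362 in WT libraries. The genotypes overlapped, and its difference of -0.08 did not pass (adjusted p = 0.687 in limma). Tspan4, which lies near Cd151 on chromosome 7 and is a close relative of Tspan9, was 821, 485, 584 and 609.8 in KO libraries, against 908, 429, 513 and 593 in WT libraries. Replicate 1 was the highest in both genotypes, and the difference was 0.06 (SE 0.222, limma adjusted p = 0.888). In RefSeq Tspan4, known for marking the migrasomes left behind moving cells, overlaps Chid1, and how reads were shared between these genes is not known.

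Cd9 and Cd81 hold back fusion of muscle cells in mice and promote fusion of egg and sperm, and both bind the immunoglobulin proteins Ptgfrn and Igsf8. Cd81 was 3300.2, 3411, 3273 and 3259.5 in KO libraries, against 2597, 2818, 2832 and 3023 in WT libraries. The KO libraries lay close together and above all WT libraries. Cd81 rose 17.5% (log2 difference 0.23, SE 0.0619, adjusted p = 0.0413 in limma), but this call was kept in only 1 of the 8 fits with a library left out, the one without WT replicate 4, and its adjusted p over those fits was 0.0433 to 0.0911. Cd9 was 992, 970.1, 1002 and 882 in KO libraries, against 764, 808, 909.9 and 794 in WT libraries. Here KO replicate 4 fell below WT replicate 3. The difference of Cd9 was also 0.23 (SE 0.0833) and did not pass at an adjusted p of 0.108 in limma. With library totals as the scaling it was 0.31 and passed (adjusted p = 0.0285), but that scaling shifted the median of all genes by 0.077. Cd9 passed in none of the 8 fits with a library left out. Its adjusted p was 0.408 without KO replicates 2 and 3 and 0.370 with depth as a covariate.

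**Figure D2:**
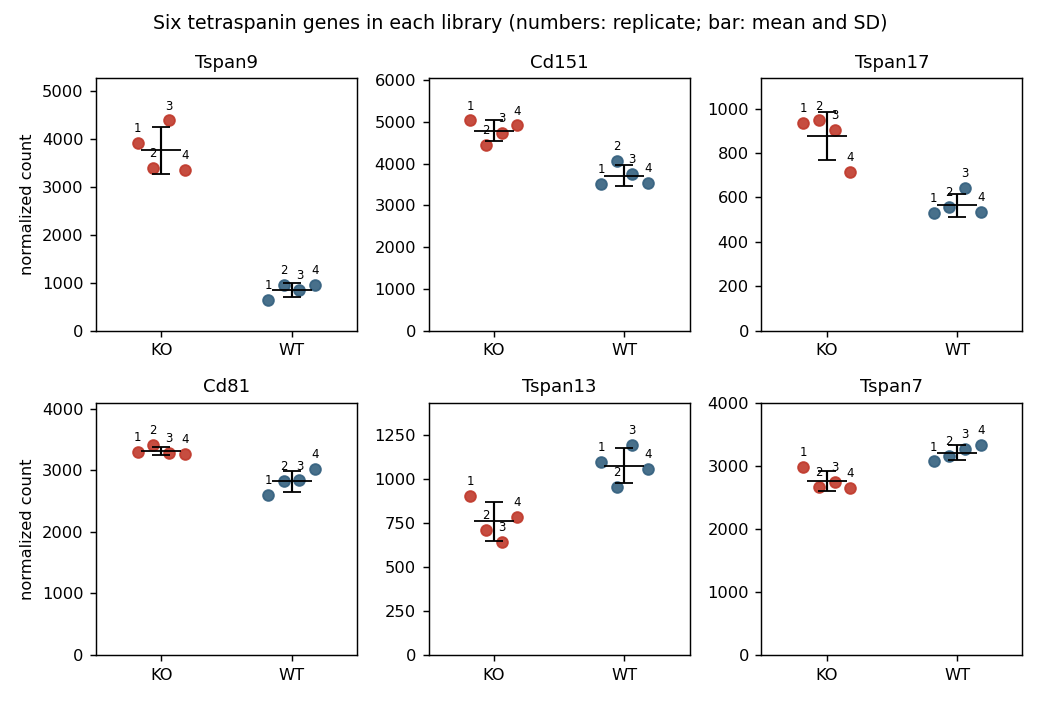
Normalized count in each library for Tspan9, Cd151, Tspan17, Cd81, Tspan13 and Tspan7, with KO libraries on the left and WT libraries on the right of each panel. Numbers are replicates, and bars give the mean and SD of 4 libraries. The genotypes do not overlap in any of the 6 panels, and the gap is widest for Tspan9 and narrow for Tspan7 and Tspan13.

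Tspan17 belongs to the TspanC8 group, whose members escort the protease Adam10 out of the endoplasmic reticulum and steer which substrates it cuts. The normalized count of Tspan17 was 937, 947, 906 and 717 in KO libraries, against 530.5, 556, 641 and 534 in WT libraries. KO replicate 4 was the lowest of the KO libraries and still above WT replicate 3. Tspan17 rose 55.0% (log2 difference 0.63, SE 0.111, limma adjusted p = 0.00741), and the call held with any 1 library left out. It was the only one of the 5 TspanC8 genes tested that passed.

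Tspan5, which favours Notch signalling through Adam10, was 172, 241, 138 and 136 in KO libraries, against 159, 75.4, 93.9 and 123 in WT libraries. WT replicate 1 lay inside the KO values, and the difference of 0.62 (SE 0.259) did not pass (adjusted p = 0.165 in limma). Tspan14, found with Adam10 on blood and endothelial cells, was 299, 400.3, 305 and 383 in KO libraries, against 277, 311, 307 and 321 in WT libraries. KO replicates 2 and 4 stood above WT and the other KO libraries among them, with a difference of 0.18. Tspan15, the escort linked to cutting of N-cadherin, was 461, 355, 314 and 398 in KO libraries, against 412, 386, 457 and 482 in WT libraries. Its values spread across both genotypes, with a difference of -0.19. Tspan33, first studied in red cell precursors, was 164, 153, 163 and 126 in KO libraries, against 163, 157, 141 and 181 in WT libraries, also with overlap and a difference of -0.08. The adjusted p of Tspan14, Tspan15 and Tspan33 was 0.401 to 0.777 in limma. Adam10 itself was 735, 756, 638 and 720.0 in KO libraries, against 768, 760.0, 589.8 and 774 in WT libraries. Replicate 3 was the lowest in both genotypes, and the Adam10 difference was -0.02 with a 95% interval of -0.25 to 0.22.

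Tspan13, also called NET-6 and studied mainly in human tumour cells, was the member that fell. Its normalized count was 904, 711, 644 and 784 in KO libraries, against 1100.3, 955, 1196 and 1061 in WT libraries. The genotypes did not overlap, with KO replicate 1 and WT replicate 2 the closest. Tspan13 fell, with a log2 difference of -0.51 (SE 0.114, limma adjusted p = 0.0209). The call was lost without KO replicate 2, without KO replicate 3 or without WT replicate 3, with an adjusted p of 0.0117 to 0.0621 over the 8 fits with a library left out. The libraries with high Myh4, KO replicates 2 and 3, had the lowest Tspan13 of all, and without both the difference was -0.35 (adjusted p = 0.177 in limma). The part of the fibre type genes in this was not tested.

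Tspan7, Tspan2 and Tspan3 are best known from neurons and glia. Tspan7, an X-linked gene of human intellectual disability whose protein binds Pick1 and affects receptor traffic at synapses, was 2990.5, 2667, 2753 and 2660.2 in KO libraries, against 3076, 3158, 3278 and 3339.8 in WT libraries. All KO libraries were below all WT libraries. The difference of -0.22 (SE 0.0622) lay just outside the call limit, with an adjusted p of 0.0558 in limma. It passed in 1 of 19 alternatives, the fit without KO replicate 1 (-0.25, adjusted p = 0.0443). With library totals as the scaling it was -0.14 (adjusted p = 0.170). It was -0.10 with depth as a covariate (adjusted p = 0.726) and -0.19 without KO replicates 2 and 3 (adjusted p = 0.284). Tspan3, an oligodendrocyte protein that binds claudin-11, was 6832, 5837, 6252 and 5975 in KO libraries, against 4726, 6386, 5819 and 5288 in WT libraries. The genotypes overlapped and the difference of 0.17 did not pass. Tspan2, which rises as oligodendrocytes mature, was 190.0, 299, 341 and 301 in KO libraries, against 307, 275, 278 and 218 in WT libraries. KO replicate 1 was the lowest and KO replicate 3 the highest of the 8 libraries, so KO spanned WT, and the difference was 0.05 (SE 0.186). None of 8 Schwann cell markers passed, and their summed level was 3028 to 3670.4 in KO libraries and 2994 to 3956 in WT libraries.

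**Figure D3:**
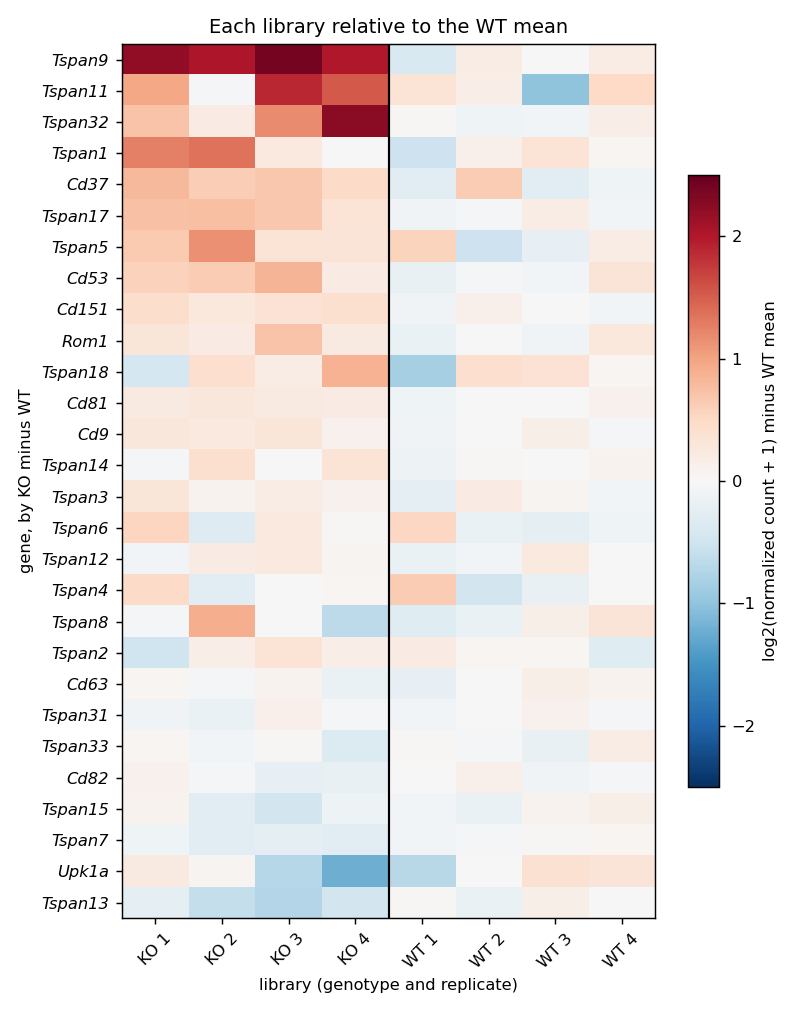
Each tetraspanin gene (rows, ordered by KO minus WT) in each library (columns, KO left of WT), as log2(normalized count + 1) minus the WT mean of that gene. Red is above and blue below the WT mean. Tspan9 is dark red in all 4 KO libraries, whereas Tspan11 and Tspan32 are red in some KO libraries and pale in KO replicate 2.

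Cd37, Cd53 and Tspan32 are tetraspanins of white blood cells, in which they temper receptor signals. Cd53 was 81.0, 84.9, 98.9 and 62.6 in KO libraries, against 47.6, 52.3, 51.4 and 67.8 in WT libraries. The 3 highest libraries were KO, and KO replicate 4 lay below WT replicate 4. Cd37 was 89.5, 77.8, 81.1 and 71.1 in KO libraries, against 42.3, 79.5, 41.8 and 46.9 in WT libraries. WT replicate 2 reached the KO values and the other WT libraries did not. Tspan32 was 18.2, 12.6, 25.6 and 55.5 in KO libraries, against 10.9, 9.84, 10.2 and 12.1 in WT libraries. The genotypes did not overlap, but KO replicate 4 was far above the other KO libraries and KO replicate 2 barely above WT.

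None of the 3 leukocyte genes passed. The differences were 0.57 for Cd53 (SE 0.210), 0.64 for Cd37 (SE 0.239) and 1.09 for Tspan32 (SE 0.430), with adjusted p of 0.121 to 0.141 in limma. Without WT replicate 2 the difference of Cd37 was 0.85 and passed (adjusted p = 0.0369). Of 12 macrophage and myeloid markers 8 rose and none fell, where 5.16% of all genes were called higher in KO. All 12 markers were above 0 by sign. Their summed level was 5132 to 6593 in KO libraries against 2919 to 3989 in WT libraries, 1.69-fold by the means. Ptprc, the pan-leukocyte marker, was 112 to 159 in KO and 54.1 to 93.5 in WT. None of the 5 lymphocyte markers tested passed, with a summed level of 36.1 to 91.4 in KO and 40.1 to 71.1 in WT, and KO replicate 4, highest in Tspan32, was also highest in this sum. The part of these cells in the values of Cd37, Cd53 and Tspan32 was not tested.

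**Figure D4:**
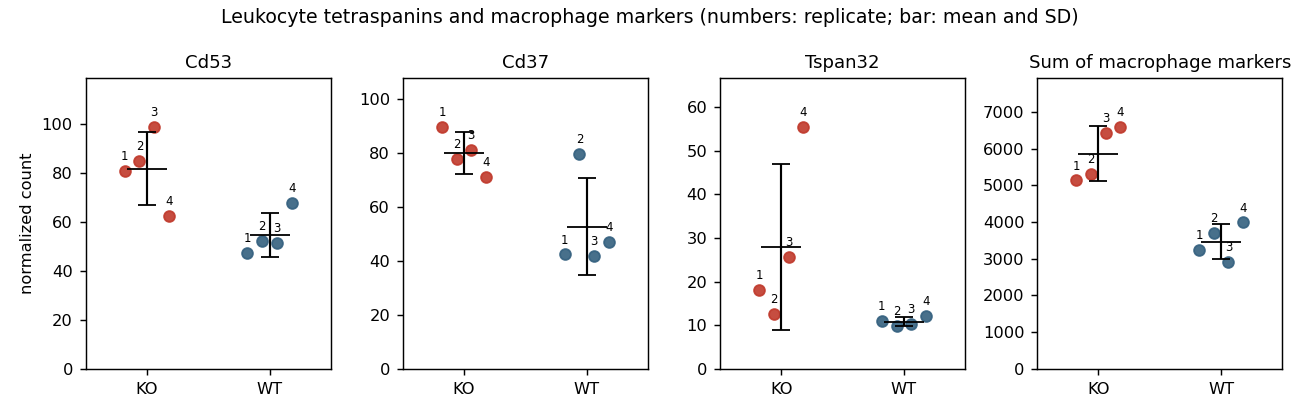
Normalized count in each library for Cd53, Cd37 and Tspan32 and the summed normalized count of 12 macrophage and myeloid markers, KO left of WT in each panel. Numbers are replicates, and bars give the mean and SD of 4 libraries. The marker sum separates the genotypes, while 1 WT library reaches the KO values of Cd37, 1 KO library lies inside WT for Cd53 and KO replicate 4 carries the KO mean of Tspan32.

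Platelets are the cells in which Tspan9 is best known. Of 5 platelet markers tested none passed, and their summed level was 334 to 406 in KO libraries and 296 to 356 in WT libraries, which overlap. Pf4, a chemokine of platelet granules, was 151, 163, 188 and 182 in KO, against 101, 123, 94.1 and 144 in WT (difference 0.57, adjusted p = 0.0631 in limma), and Itga2b, the platelet fibrinogen receptor subunit, overlapped between genotypes (0.14). Gp6, the glycoprotein VI gene, was 9.54, 15.3, 2.13 and 5.25 in KO, against 4.67, 6.26, 3.71 and 4.75 in WT, with overlap. Of 9 embryonic and denervation-responsive muscle genes 3 rose (Myh3, Chrng and Runx1), with a summed level of 10221 to 16586 in KO and 5183 to 6775 in WT. Of 8 satellite cell markers Pax7 and Fgfr4 fell, with a summed level of 2046 to 2547 in KO and 2361 to 2688 in WT, which overlap. Over all genes 5.16% were called higher and 3.79% lower in KO. The paper already reports higher Myh3 and Chrng and lower Pax7 from this RNA-seq, so these counts are a description. The part of platelets, satellite cells and these fibre states in the Tspan9 values was not tested.

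The genes beside Tspan9 on chromosome 6 were also read, and Tspan11, another member, is one of them. Tspan11 was 91.3, 45.9, 175 and 137 in KO libraries, against 59.2, 52.3, 22.5 and 66.5 in WT libraries. Its KO libraries ran from below to far above the WT libraries, and the difference of 1.09 (SE 0.439) did not pass (adjusted p = 0.149 in limma). On the other side, beyond the outermost Tspan9 start, lies the long non-coding RNA gene 9330102E08Rik. It was 205, 217, 195 and 225 in KO libraries, against 85.0, 116, 108 and 92.8 in WT libraries. The genotypes did not overlap, and 9330102E08Rik rose 2.10-fold (log2 difference 1.07, SE 0.148, adjusted p = 0.00272 in limma), a call lost without KO replicates 2 and 3 (1.10, adjusted p = 0.0518) and with depth as a covariate (1.13, adjusted p = 0.104). The next entry, the pseudogene Gm18609, was 23.3, 37.5, 40.0 and 52.9 in KO, against 9.14, 10.6, 21.8 and 13.9 in WT (difference 1.42, adjusted p = 0.0352 in limma), a call that was kept in 2 of the 8 fits with a library left out, those without KO replicate 1 and without WT replicate 3, and its difference was 0.89 with depth as a covariate. Tead4, a muscle transcription factor further along, overlapped between genotypes with a difference of 0.43 (adjusted p = 0.166). Cracr2a, at 1.08 (adjusted p = 0.167 in limma), and Gm19065, at -0.45 (adjusted p = 0.330 in limma), also overlapped. These neighbours were chosen after the values of Tspan9 were known, and 9330102E08Rik and Gm18609 after their own were seen. The adjusted p-values of 9330102E08Rik and Gm18609 are therefore a description and no test.

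**Figure D5:**
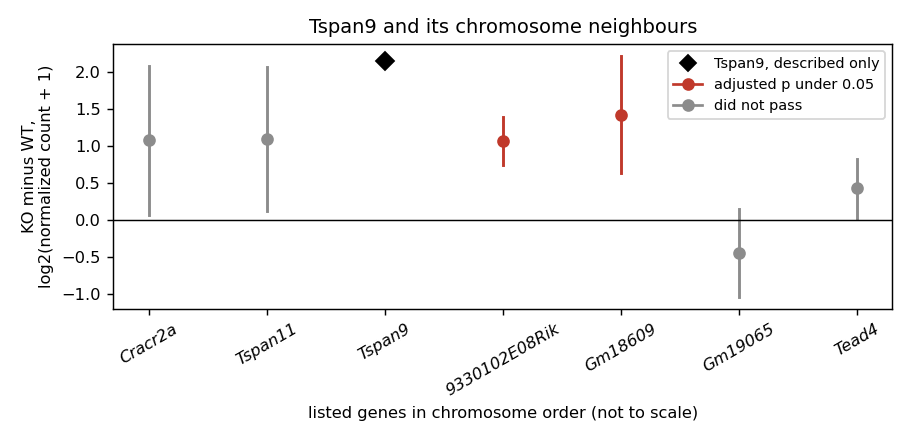
KO minus WT difference in log2(normalized count + 1) with 95% intervals from limma for the listed genes around Tspan9 on chromosome 6, in chromosome order and not to scale. Tspan9, a diamond, was not tested. 9330102E08Rik at 1.07 and Gm18609 at 1.42, both chosen after their values were seen, passed, while Cracr2a, Tspan11, Gm19065 and Tead4 did not.

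Other members belong to vesicles, vessels and specialised epithelia, and none of them passed. Cd63, the tetraspanin of late endosomes and exosomes, was 4707, 4417, 4875 and 4044 in KO libraries, against 3968, 4499.9, 5015 and 4818 in WT libraries. The genotypes covered almost the same range, and the 95% interval of the Cd63 difference was -0.21 to 0.17. Tspan6, which acts on exosome release, was 175, 96.3, 144 and 124 in KO libraries, against 173, 107, 102 and 111 in WT libraries, with replicate 1 high in both genotypes.

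Tspan12, a co-receptor for norrin at Fzd4 in retinal vessels, was 369, 441, 456 and 401 in KO libraries, against 344, 368, 455 and 380.1 in WT libraries. The genotypes overlapped with a difference of 0.11 (SE 0.118). Tspan18, an endothelial tetraspanin that keeps Orai1 at the surface, was 86.8, 159, 134 and 217 in KO libraries, against 66.2, 159, 154 and 123 in WT libraries. Replicate 1 was the lowest in both genotypes, and the difference was 0.25 (SE 0.326). Of 8 endothelial markers Cdh5 and Tie1 fell, where 3.79% of all genes were called lower in KO. All 8 markers were below 0 by sign, with a summed level of 9973 to 12550 in KO and 12307 to 14807 in WT.

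Rom1, a disc rim protein of photoreceptors, was 142, 132, 188 and 134 in KO libraries, against 102, 114, 107 and 137 in WT libraries. WT replicate 4 lay among the KO values, and the difference of 0.36 did not pass (adjusted p = 0.212 in limma). Upk1a, a uroplakin of the bladder lining, was 25.0, 22.5, 12.5 and 8.58 in KO libraries, against 12.8, 21.3, 27.9 and 26.9 in WT libraries, with overlap and a difference of -0.41 (SE 0.408). The remaining members Tspan1, Tspan8 and Tspan31 also overlapped between genotypes and did not pass, with differences of 0.72, 0.06 and -0.04. By separation alone, every KO library was above every WT library for 4 of the 27 genes other than Tspan9 (Cd151, Cd81, Tspan17 and Tspan32), and below for Tspan13 and Tspan7, where 8.63% and 8.54% of all genes were so placed. The genotypes overlapped in the other 21 of the 27 members, and 17.2% of all genes had no overlap in either direction.

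Genes whose products bind or work with tetraspanins were read from a list. Of 31 partner genes 6 rose, 1 fell and 24 did not pass, which is 22.6% called beside the 8.95% of all genes. The list was drawn up with earlier results of these data known, and the paper reports increased Cd44. The share is therefore a description and no test of the partners as a set. With library totals as the scaling 8 rose and 0 fell, and with depth as a covariate or without KO replicates 2 and 3 the only partner called was Itga3. Among adhesion partners, Itga3, the integrin subunit that Cd151 binds most tightly, was 611, 367, 467 and 450.3 in KO libraries, against 275, 271, 274 and 276 in WT libraries. The WT libraries were almost equal and all KO libraries lay above them, a rise of 72.8% (log2 difference 0.76, SE 0.143, adjusted p = 0.0101 in limma). Itga3 passed under all 19 alternatives tried. Itgb1, its beta chain, was 8970.1, 8756, 9446 and 7905 in KO libraries, against 6768, 6855, 7577 and 7699.8 in WT libraries. It rose 21.4% without overlap (adjusted p = 0.0371 in limma), a call that was kept in 2 of the 8 fits with a library left out, those without KO replicate 4 and without WT replicate 4. Itga7, the main laminin receptor chain of muscle fibres, overlapped between genotypes with a difference of -0.09 and an interval of -0.26 to 0.07.

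Ptgfrn, the partner of Cd9 and Cd81, was 709.7, 964, 938 and 985 in KO libraries, against 589, 625, 609 and 617 in WT libraries. KO replicate 1 was the lowest KO library and still above WT. Ptgfrn rose 47.5% (log2 difference 0.55, SE 0.109, adjusted p = 0.0128 in limma), but it was 0.23 with depth as a covariate (adjusted p = 0.517) and 0.46 without KO replicates 2 and 3 (adjusted p = 0.145). Igsf8, the related partner, was 553, 552, 617 and 537 in KO libraries, against 658, 405, 645 and 471 in WT libraries. Its KO values lay inside the WT range, and the difference of 0.08 did not pass. Cd44, a hyaluronan receptor found in tetraspanin patches, rose 76.3% with 325 to 514 in KO and 231 to 259.5 in WT (adjusted p = 0.0093 in limma).

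Hbegf, a growth factor that Cd9 holds at the membrane, was 457, 352, 1059 and 339 in KO libraries, against 199, 172, 230.1 and 279 in WT libraries. It rose (log2 difference 1.18, SE 0.321, adjusted p = 0.0462 in limma) with KO replicate 3 far above the rest, and its call was lost without KO replicate 1 and without each WT replicate in turn. Timp1, a protease inhibitor that binds Cd63, was 212, 87.1, 165 and 133 in KO libraries, against 43.4, 44.6, 44.1 and 77.9 in WT libraries. It rose 2.84-fold without overlap (adjusted p = 0.0136 in limma, 0.0507 without KO replicate 3). Pick1, the partner of Tspan7, was 1269, 1456, 1306 and 1368 in KO libraries, against 1656, 1617, 1738 and 1626 in WT libraries. It fell without overlap, with a log2 difference of -0.30 (SE 0.0684, adjusted p = 0.0233 in limma). Pick1 no longer passed when KO replicate 1, KO replicate 3, WT replicate 3 or WT replicate 4 was left out, nor with library totals as the scaling (-0.22, adjusted p = 0.0667).

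Of 7 fibroblast markers 4 rose, with a summed level of 27972 to 41836 in KO against 22030.1 to 25676 in WT. Of 6 adipocyte markers 4 rose, with 9480.0 to 14366 in KO against 7817 to 9638 in WT, so the sums overlap. Over all genes 5.16% were called higher in KO. Whether these markers vary with the adhesion genes from library to library was not tested. The part of these cells in the values of Cd151, Cd81, Tspan17, Itga3, Itgb1, Ptgfrn and Cd44 was not tested.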

How the data were processed

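Soleus RNA from 4 Megf10 KO and 4 WT mice, 1 library each, was quantified by the authors with Salmon on GRCm39, summed to genes with tximport and normalized with DESeq2. The signal values deposited by the authors are these normalized gene counts, and since only 17.6 to 36.5% of low values (up to 60) came out as whole reads within 0.01, no count test was run. The authors' table of fold changes and p-values was not used. A line with no gene name, 0.0112 to 0.0150% of each library, was left out. Differences were fitted with limma 3.58.1 in R 4.3.3 on log2(value + 1), genotype as the sole term, prior variance following expression (prior df 4.59), two-sided, Benjamini-Hochberg over 16382 genes. A summed value above 5 was required, which removed none. The fit was tested on simulated data. Summaries and plots used Python 3.11.15, pandas 2.3.3 and matplotlib 3.10.9.

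Members, role, partner and marker lists, and the rule for named genes were chosen with earlier results of these data known. Each called member, each role-list member, each called partner and Adam10, Itgb1, Itga7, Ptgfrn and Igsf8 were named. All 28 members matched RefSeq symbols. Promoter windows are the 250 bases before each RefSeq start on GRCm38.p6, with none for Tspan18. Alternatives were other scalings, a pseudocount of 0.5 or 5, no filter or only genes averaging 10 or more, other variance models, each library left out, KO replicates 2 and 3 left out, a replicate block and depth as a covariate.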

Additional observations from a re-analysis of the deposited data

Results flagged for a closer look

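In 84 groups of 4 libraries (42 genes by 2 genotypes) the gap of the extreme library was set against the whole range, and 6 groups passed Dixon's test for 1 library far from the rest, where chance passes about 1 in 20 groups. Cd37 was 79.5 in WT replicate 2, against 41.8 to 46.9 in the other WT libraries. Tspan6 was 173 in WT replicate 1, with 102 to 111 in the others. Ptgfrn was 709.7 in KO replicate 1, with 938 to 985 in the other KO libraries. Adam10 was 589.8 in WT replicate 3, with 760.0 to 774 in the others. Hbegf was 1059 in KO replicate 3, with 339 to 457 in the other KO libraries. Timp1 was 77.9 in WT replicate 4, with 43.4 to 44.6 in the others.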

How the results depend on the processing

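Of 798 recomputed differences of named genes, 689 kept direction and call, 68 lost the call, 5 gained it and 36 changed sign, none of these 36 in a called gene. Only a gene called in the main fit could lose a call, and most of the 798 come from genes not called there. The 689 of 798 is therefore not the share of calls that held. The 689 include the 19 of Tspan9, which has no call. Those were counted as kept because each moved by less than the pooled SD of its libraries. The 1466 genes called became 819 with a prior variance without trend, 164 without KO replicates 2 and 3 and 58 with depth as a covariate, and 662 to 1231 with 1 library left out (662 without KO replicate 3, 907 without WT replicate 3, 959 without WT replicate 4). The 4 called members became 2, 0 and 0 under the first 3 of these and 2 to 4 with a library left out, and the 7 called partners 4, 1 (Itga3), 1 (Itga3) and 4 to 7 (4 without KO replicate 1, KO replicate 3 or WT replicate 3). At an unadjusted p under 0.05 there were 6 members (22.2%, beside 17.8% of all genes) without KO replicates 2 and 3 and 5 (18.5%, beside 13.0%) with depth in the fit. Estimated depth was lower in 3 of 4 KO libraries, so it and genotype are hard to separate. Library totals as the scaling shifted the median of all genes by 0.077 and called 1279 genes higher and 321 lower in KO (1244 and 333 without the 10 most abundant genes), in place of 845 and 621. Tspan9 stayed at 2.03 to 2.30 under all 19 alternatives. Signs changed for Cd63 (0.060 with library totals, 0.057 without the top 10 genes, 0.086 with depth), Tspan31 (0.038 and 0.035 with these totals), Adam10 (0.063 and 0.060, and 0.018 without KO replicates 2 and 3), Cd82 (0.12), Tspan12 (-0.0084), Tspan14 (-0.012), Tspan15 (0.057), Tspan18 (-0.20), Tspan2 (-0.46), Tspan8 (-0.062) and Upk1a (0.31), all with depth, and Tspan2 (-0.16) and Tspan8 (-0.35) without KO replicates 2 and 3. With 1 library left out, log2 differences ran from -0.085 to 0.033 for Cd63, -0.026 to 0.49 for Tspan18, -0.053 to 0.23 for Tspan2, -0.093 to 0.0035 for Tspan31, -0.14 to 0.0041 for Tspan33, -0.086 to 0.27 for Tspan4, -0.0090 to 0.30 for Tspan6, -0.23 to 0.30 for Tspan8, -0.052 to 0.18 for Igsf8 and -0.11 to 0.037 for Adam10. The causes were not tested. DESeq2 was not run, since the values are not counts.

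Replicate numbers shared between genotypes did not pair the libraries: same-numbered deviations correlated at -0.0209, -0.0706, -0.0085 and -0.0461, and 0 of 8 libraries correlated best with its own number. With the replicate block 1278 genes, 3 members (Cd81 lost) and 6 partners were called.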
